A study of Canis lupus familiaris with 6 samples.

Results

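The amino acid and peptide transporters of 8 solute carrier (SLC) families were followed in MDCKII cells, a Madin-Darby canine kidney epithelial line that polarizes in culture. Members were all probe sets annotated with a single gene symbol from the SLC1, SLC3, SLC6, SLC7, SLC15, SLC36, SLC38 or SLC43 family. This gave 108 of 42924 probe sets, standing for 57 of 15115 named genes, with 28 genes on 2 or more probe sets and 29 on 1. A further 7 family genes of the canine gene table had no such probe set and were not analysed here, among them SLC6A19, SLC7A7 and SLC6A13.

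The 2D group (3 arrays) came from confluent monolayers on plastic in MEM without Matrigel. The 3D group (3 arrays) came from cells plated on a thin Matrigel layer of 100 µl in a 60 mm dish, under MEM with 2% Matrigel, where they form cysts. Both groups were harvested at 36 h and are labelled as biological replicates of a single cell line. The labels name no genetic change, and nothing says that cultures were started on separate days. Because matrix and culture shape changed together, their parts in a difference cannot be told apart. The 2D cells were confluent, so any difference in cell density cannot be told apart from these either.

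As background, amino acids cross epithelia by carriers that differ between the apical and basolateral membranes. Sodium-driven carriers such as SLC6A6 and the SLC1 and SLC38 proteins concentrate their substrates in the cell, whereas exchangers of the SLC7 family, most of which need an SLC3 heavy chain to reach the membrane, trade 1 amino acid for another. In the kidney tubule these carriers reclaim filtered amino acids and peptides, import cystine for glutathione, and take up taurine, betaine and other organic osmolytes. Several lie on the lysosome, where SLC38A9 takes part in the signal of amino acid supply to the growth kinase complex mTORC1.

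Values are log2 array signals. The 4 arrays of replicates 2 and 3 lay on a single scale (medians 7.06 to 7.08), while the replicate 1 columns had medians of 5.42 and 5.26 and correlated at r = 0.861 to 0.872 with the other arrays across probe sets. Tests were therefore restricted to replicates 2 and 3 (n = 2 in each group); the difference within replicate 1 stands beside them as a single untested value. Their p-values measure the spread between these 4 arrays, which may be partly technical. Of 12 epithelial and kidney markers, including CDH1, EPCAM and PAX8, none passed the test, and their mean signal was 10.7 to 10.9 on the 4 arrays. None of 8 fibroblast, 7 endothelial or 7 leukocyte markers passed either. Their mean signals were 6.07 to 6.09, 6.31 to 6.43 and 6.56 to 6.71. Single markers read higher, such as CDH5 (8.34 to 8.47) and CD14 (7.82 to 8.32). Signals of different probe sets are not comparable, so these means do not rank cell types. The poly-A RNA added as a control to each sample gave signals 0.94 higher on 3D replicate 2 than the mean of the other 3 arrays, and 0.83 higher on 3D than on 2D replicate 1. In such whole-culture RNA, fewer cells using a gene and less of its RNA per cell cannot be told apart.

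In 3D, 1 probe set each of SLC6A6, which carries taurine, SLC6A8, which carries creatine, and SLC1A1, the glutamate and aspartate carrier of the tubule, rose by 1.51- to 2.23-fold. The other probe sets of SLC6A6 and SLC6A8 did not pass, and all probe sets of these 2 genes were lower in 3D in replicate 1. SLC38A1 and SLC1A5, which carry glutamine and other neutral amino acids, and SLC7A1, which carries arginine and lysine, fell by 1.44- to 1.72-fold on the probe sets that passed. In total, 8 of 108 probe sets passed (7.41%) at an adjusted p under 0.05 by limma, 3 higher and 5 lower, against 6.61% of all probe sets. By direction the share was 2.78% higher and 4.63% lower, against 3.65% and 2.96% of all probe sets. By gene, using each gene's brightest probe set, 5 of 57 passed (8.77%, against 7.29% of all genes). By direction 3 were higher (5.26% of member genes, against 4.2% of all genes) and 2 lower (3.51%, against 3.09%). With each gene as the mean of its probe sets 5 passed as well, 2 higher and 3 lower, against 7.63% of all genes. The share of members called thus lay near that of the array as a whole, and with 2 arrays per group a member that did not pass is not shown to be unchanged.

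Most members differed by less than 0.5 on the log2 scale. Log2 fold changes (3D minus 2D) ran from -0.84 to 1.16 with a median of 0.0175, against a median of -0.005 over all probe sets, and 58 were above 0, 48 below it and 2 at 0. In 13 the size was at least 0.5, and 8 of these passed. In 61 probe sets (56.5%) the 2D and 3D values of replicates 2 and 3 did not overlap, 34 higher and 27 lower. Over all probe sets the share was 51.8%, with 25.1% higher and 26.7% lower. The mean signal of 39 members (36.1%) lay below 5.67, the lower quartile of all probe sets. These are called dim here. Their differences are less certain in size, and 1 of them passed the test.

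**Figure D1:**
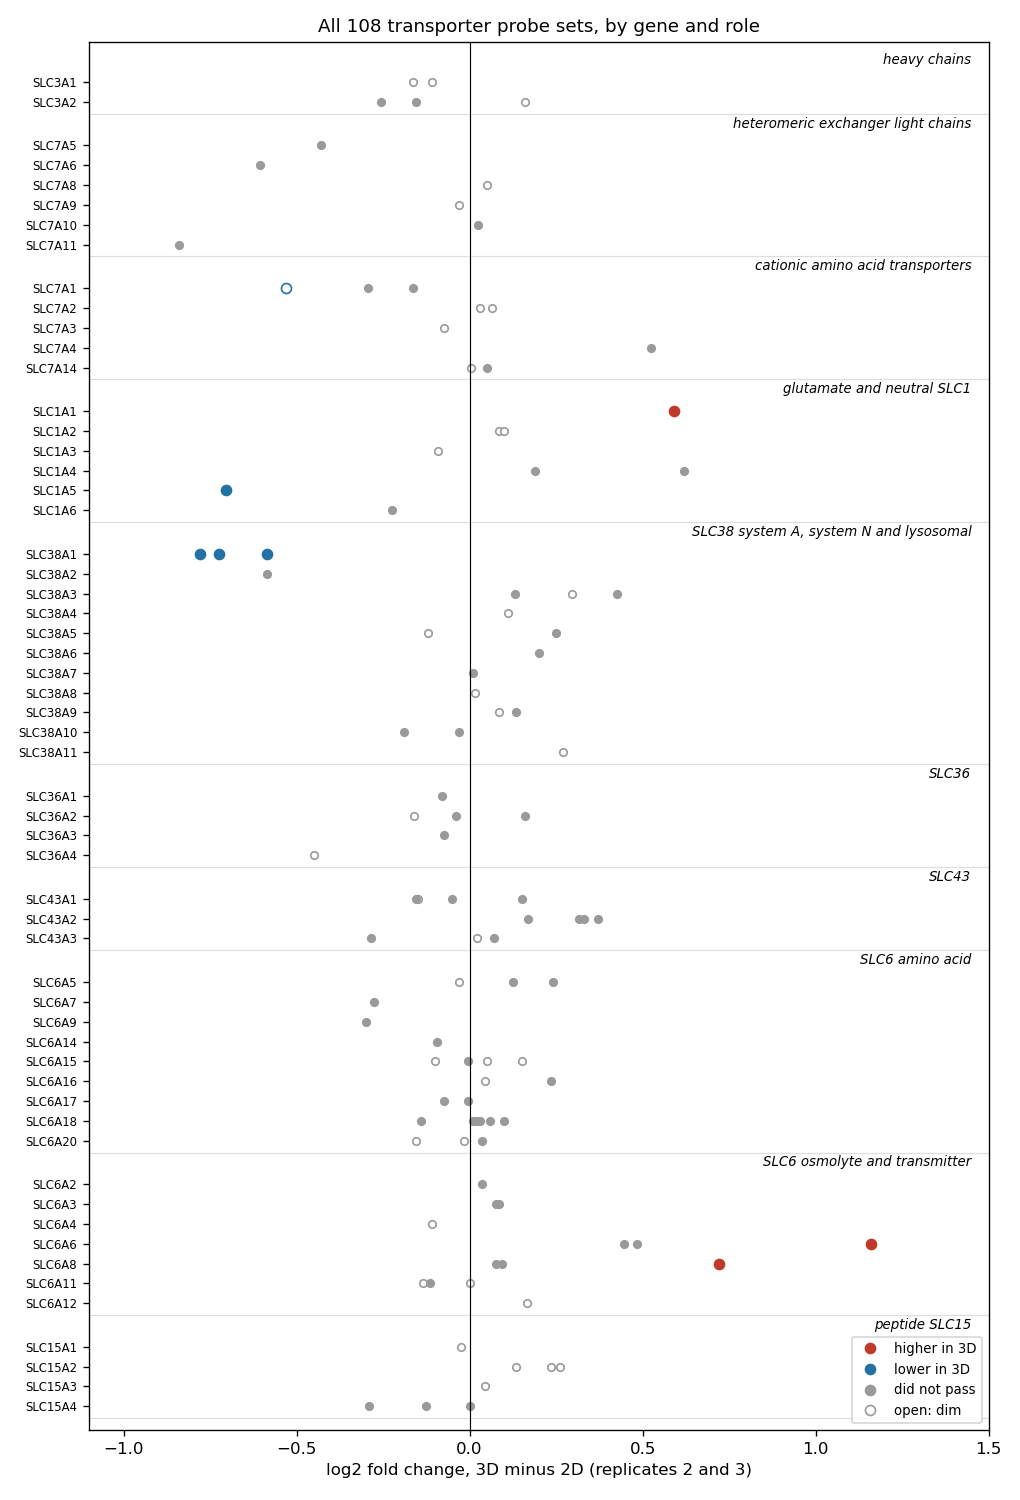
Log2 fold change (3D minus 2D, replicates 2 and 3, n = 2 arrays per group) of each of the 108 probe sets, with genes as rows grouped by role; red and blue points passed the limma test, grey ones did not, and open points are dim. Most points lie within 0.5 of 0, the 3 red points belong to SLC1A1, SLC6A6 and SLC6A8, and all 3 SLC38A1 points are blue.

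The calls rest on 4 arrays. With either 2D array (replicate 2 or 3) or either 3D array (replicate 2 or 3) left out, 0 of 42924 probe sets passed by limma, members included, while 4683 to 10892 of all probe sets and 12 to 19 of the members had an unadjusted p under 0.05. With all 4 arrays these counts were 10072 and 22. Each such fit leaves 1 array in a group, so its spread comes from the other group and the lone array is assumed to vary like it. The log2 fold changes of the probe sets that passed then ran from 1.065 to 1.255 for SLC6A6, from 0.585 to 0.855 for SLC6A8, from 0.535 to 0.645 for SLC1A1 and from -0.875 to -0.535 for SLC1A5. Those of SLC38A1 spanned -0.855 to -0.46 over its probe sets, and SLC7A1 gave -0.54 to -0.52. In the replicate 3 pair, which leaves out the array with bright poly-A controls, the differences were 0.52 to 1.28 for the probe sets that rose and -0.95 to -0.53 for those that fell. Their signs are fixed by groups that do not overlap, so only the sizes are information.

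**Figure D2:**
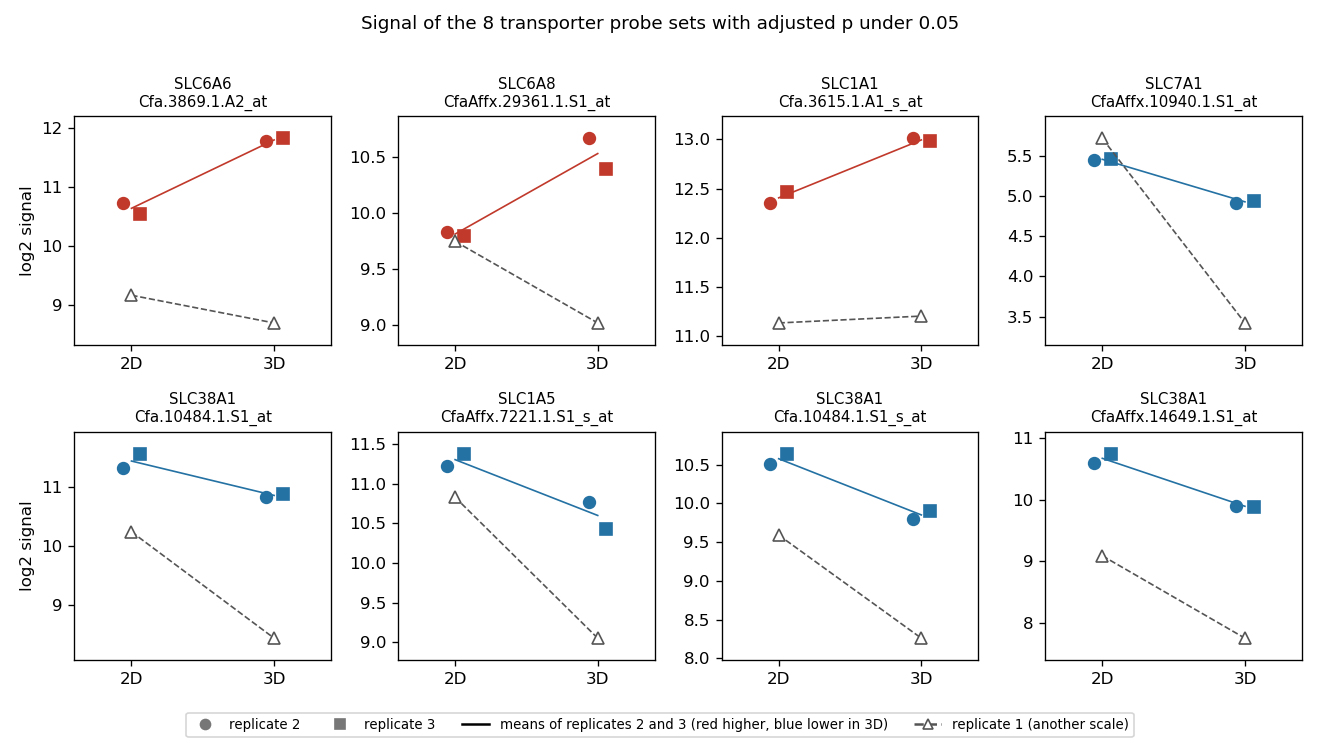
Log2 signal in 2D and 3D of the 8 probe sets that passed, with circles for replicate 2, squares for replicate 3, lines between their means, and open triangles with dashed lines for replicate 1, which is on another scale. In replicates 2 and 3 the groups do not overlap in any panel; in replicate 1 SLC6A6 and SLC6A8 slope downward, by -0.47 and -0.73.

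Among carriers of osmolytes and related solutes, SLC6A6 had the largest rise of any member. The taurine it imports is an organic osmolyte of kidney cells. On its brightest probe set the signal was 10.73 and 10.54 in 2D (replicates 2 and 3) and 11.77 and 11.82 in 3D. Both 3D arrays lay above both 2D arrays, with a log2 fold change of 1.16 (SE 0.112, 95% interval 0.89 to 1.43, limma adjusted p = 0.00914). Its other probe sets were higher by 0.485 (limma adjusted p = 0.107) and 0.445 (limma adjusted p = 0.0679) and did not pass. The mean of the 3 probe sets did pass, at 0.70 (limma adjusted p = 0.0133). In replicate 1 all 3 probe sets went the other way, with differences of -0.47, -0.95 and -0.39.

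SLC6A8 supplies cells with creatine, the precursor of the energy buffer phosphocreatine. Its brightest probe set read 9.83 and 9.80 in 2D and 10.67 and 10.40 in 3D. The groups did not overlap, and the log2 fold change was 0.72 (SE 0.124, 95% interval 0.42 to 1.02, limma adjusted p = 0.0304). The rise was not shared by the gene's other probe sets, which differed by 0.095 and 0.075 (limma adjusted p = 0.670 and 0.838). As the mean of the 3, SLC6A8 did not pass (0.30, limma adjusted p = 0.162). All 3 were lower in 3D in replicate 1, by -0.73, -0.86 and -0.75.

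SLC6A12, the betaine carrier known from this cell line as an osmolyte transporter, is dim on its only probe set. It read 5.51 and 5.18 in 2D and 5.54 and 5.48 in 3D, and did not pass (0.165, 95% interval -0.17 to 0.50, limma adjusted p = 0.546). The carriers of GABA (SLC6A11), noradrenaline (SLC6A2), dopamine (SLC6A3) and serotonin (SLC6A4) are best known from neurons and glia. Their 7 probe sets differed by -0.135 to 0.085, and none passed. Of the 14 probe sets in this role, 2 were higher, 0 lower and 12 did not pass.

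The SLC1 family went in both directions. SLC1A1, known as the apical glutamate carrier of the proximal tubule, has 1 probe set here, with signals of 12.35 and 12.46 in 2D and 13.01 and 12.98 in 3D. The 3D arrays stood above the 2D arrays by a log2 fold change of 0.59 (SE 0.102, 95% interval 0.34 to 0.84, limma adjusted p = 0.0305). In replicate 1 the difference was 0.07.

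SLC1A5, a sodium-dependent exchanger that brings glutamine into growing cells, fell. Its signals were 11.23 and 11.38 in 2D and 10.77 and 10.43 in 3D, without overlap. The log2 fold change was -0.705 (SE 0.144, 95% interval -1.06 to -0.35, limma adjusted p = 0.0448), or 1.63-fold, and with trend and robust priors the limma adjusted p was 0.0512. Replicate 1 had the same sign, at -1.78, where the median of all member probe sets was -0.74. SLC1A4, a related exchanger of alanine, serine and cysteine, was 0.62 higher on 1 probe set without passing (limma adjusted p = 0.110) and 0.19 higher on the other. The glutamate carriers SLC1A2, SLC1A3 and SLC1A6, best known from brain, differed by -0.225 to 0.10 and did not pass.

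SLC38A1, a sodium-coupled importer of glutamine and alanine (system A), gave the most uniform result. Its brightest probe set read 11.32 and 11.57 in 2D and 10.84 and 10.88 in 3D. Another read 10.51 and 10.64 against 9.80 and 9.90, and the last 10.60 and 10.75 against 9.90 and 9.89. On each probe set both 3D arrays lay below both 2D arrays. In this order the log2 fold changes were -0.585 (SE 0.121, limma adjusted p = 0.0459), -0.725 (SE 0.107, limma adjusted p = 0.0207) and -0.78 (SE 0.106, limma adjusted p = 0.0172). The smallest of these lost its call with trend and robust priors (limma adjusted p = 0.0554). As the mean of its probe sets the gene fell by 0.70 on the log2 scale (limma adjusted p = 0.0184). Replicate 1 had the same sign on all 3, with differences of -1.81, -1.33 and -1.34. The median of all member probe sets there was -0.74. By their names, the first pair of these probe sets comes from the same source sequence, so they are not independent readings.

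SLC38A2, the other main system A carrier, which is known to be induced when amino acids run short or the medium is hypertonic, lies next to SLC38A1 in the gene order of the canine assembly UU_Cfam_GSD_1.0. Its signals were 8.97 and 9.14 in 2D and 8.16 and 8.78 in 3D. The 3D arrays were lower by 0.81 in replicate 2 and by 0.36 in replicate 3. The mean difference of -0.585 equals that of the weakest SLC38A1 probe set but did not pass (SE 0.208, 95% interval -1.09 to -0.08, limma adjusted p = 0.162), and the replicate 1 difference was -0.76. The fold change was -0.275 without 3D replicate 2 and -0.895 without 3D replicate 3. SLC38A4, with 1 protein-coding gene between it and SLC38A2, is dim and differed by 0.11.

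The other SLC38 genes did not pass. SLC38A3 and SLC38A5, the system N carriers that move glutamine with proton exchange, differed by 0.13 to 0.425 on 3 and by -0.12 to 0.25 on 2 probe sets. SLC38A9, the lysosomal arginine sensor, had 8.32 and 8.45 in 2D against 8.69 and 8.35 in 3D on its brighter probe set. These groups overlap (0.135, 95% interval -0.21 to 0.48, limma adjusted p = 0.649). In the whole SLC38 family 3 probe sets were lower, 0 higher and 15 did not pass, with all 3 from SLC38A1.

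For cationic amino acids, SLC7A1, the widespread arginine and lysine carrier, fell on 1 of its 3 probe sets. On that probe set it read 5.45 and 5.47 in 2D and 4.92 and 4.94 in 3D (-0.53, SE 0.0967, 95% interval -0.77 to -0.29, limma adjusted p = 0.0344). This probe set is the dim one that passed, so the size of its fall is uncertain. The other probe sets also gave lower means in 3D, by -0.295 (limma adjusted p = 0.144) and -0.165 (limma adjusted p = 0.436), and the mean of the 3 did not pass (-0.33, limma adjusted p = 0.0771). In replicate 1 they differed by -2.30, -1.76 and -0.26. SLC7A4, a relative of these carriers, read 6.51 and 6.81 against 7.24 and 7.13 in 3D and did not pass (0.525, limma adjusted p = 0.0755). SLC7A2, SLC7A3 and SLC7A14 lay between -0.075 and 0.065.

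None of the heteromeric exchangers passed. SLC7A11, which imports cystine in exchange for glutamate, had a log2 fold change of -0.84, the lowest of the members on the 4 arrays. Its signals were 7.30 and 8.28 in 2D and 6.41 and 7.49 in 3D. The arrays of replicate 3 read about 1 log2 unit above those of replicate 2 in both groups, so the groups overlap and the interval spans 0 (SE 0.430, 95% interval -1.89 to 0.21, limma adjusted p = 0.311). Leaving out an array moved the fold change to -1.33 or -0.35 for the 2D arrays of replicates 2 and 3, and to -0.30 or -1.38 for the 3D arrays in the same order. Within replicates the differences were -0.89 and -0.79, and -2.67 in replicate 1. With a replicate block on the 4 arrays the SE was 0.0906. SLC7A11 did not pass in that fit (limma adjusted p = 0.153), in which no probe set passed.

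SLC7A5, the leucine exchanger of growing cells, read 8.37 and 8.54 in 2D and 7.99 and 8.06 in 3D. The groups do not overlap, but the difference of -0.43 did not pass (95% interval -0.70 to -0.16, limma adjusted p = 0.0769), and replicate 1 gave -1.98. SLC7A6, which trades cationic for neutral amino acids, differed by -0.605 without passing (limma adjusted p = 0.174). SLC7A8, SLC7A9 and SLC7A10 differed by -0.03 to 0.05.

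The heavy chains with which these exchangers pair did not pass. SLC3A2, the partner of SLC7A5, SLC7A6 and SLC7A11, read 7.48 and 7.51 in 2D and 7.31 and 7.37 in 3D on its brightest probe set (-0.155, 95% interval -0.39 to 0.08, limma adjusted p = 0.417). Its other probe sets gave -0.255 and, on a dim one, 0.16. In replicate 1 the brightest probe set differed by -2.19. SLC3A1 and SLC7A9 form the cystine transporter of the tubule brush border that is defective in cystinuria. Both are dim here: SLC3A1 gave -0.165 and -0.11, and SLC7A9 gave -0.03 (95% interval -0.36 to 0.30, limma adjusted p = 0.935).

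**Figure D3:**
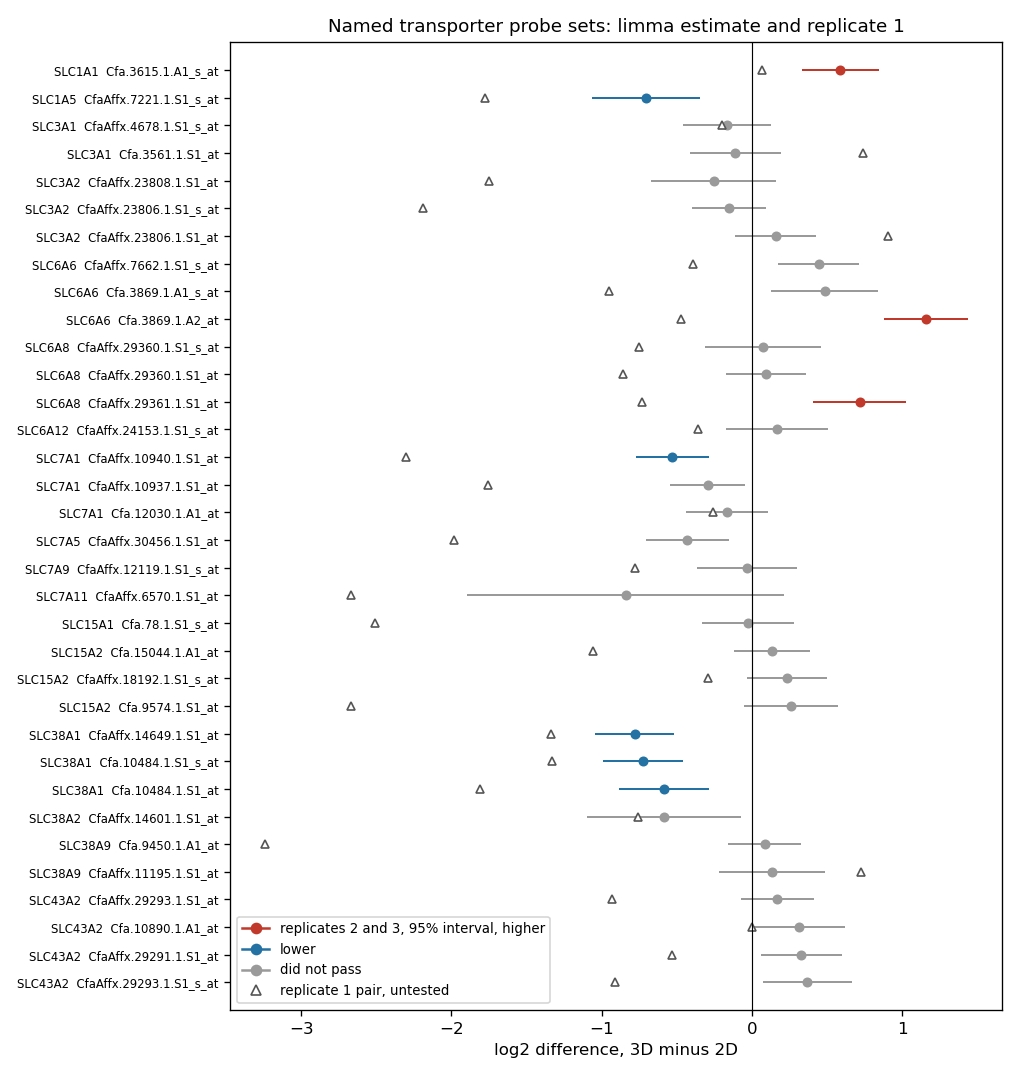
Log2 difference (3D minus 2D) of 34 probe sets, being all those of the genes with a call and of transporters named whatever their values; circles and lines give the limma estimate from replicates 2 and 3 with its 95% interval, and open triangles the replicate 1 pair. The interval of SLC7A11 is the widest, and those of the 3 SLC38A1 probe sets all lie below 0.

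The SLC36 and SLC43 families held no call on any probe set. SLC36A4, a carrier of proline and tryptophan on a dim probe set, read 5.81 and 5.73 in 2D and 5.33 and 5.31 in 3D. It lay just outside the threshold (-0.45, SE 0.0992, limma adjusted p = 0.0544), and passed when genes were fitted as the mean of their probe sets (limma adjusted p = 0.0383). It has 1 probe set, so the fold change is the same in that fit, while the SE is 0.0898. Its replicate 1 difference was -1.01. SLC36A1, SLC36A2 and SLC36A3, which lie side by side in the gene order, differed by -0.16 to 0.16 on 5 probe sets.

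SLC43A2, which lets branched-chain amino acids leave the cell, had means above 0 on all 4 probe sets without passing on any. Its brightest probe set read 7.15 and 7.41 in 2D and 7.60 and 7.59 in 3D (0.315, 95% interval 0.02 to 0.61, limma adjusted p = 0.191). The others differed by 0.33, 0.17 and 0.37 (limma adjusted p = 0.135, 0.363 and 0.128). In replicate 1 the 4 differences were 0.00, -0.53, -0.93 and -0.91. SLC43A1 and SLC43A3, which has been described as a nucleobase carrier, lay between -0.285 and 0.15.

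The SLC6 carriers of amino acids held no call on 23 probe sets of 9 genes, with fold changes from -0.30 to 0.24 and adjusted p of 0.255 or more by limma. SLC6A18 and SLC6A20, kidney carriers of glycine and proline, differed by -0.155 to 0.10 on 9 probe sets. SLC6A14, a broad carrier of neutral and cationic amino acids, read 6.29 and 6.47 in 2D and 6.21 and 6.36 in 3D, with overlap (-0.095, limma adjusted p = 0.707). The glycine carrier SLC6A9 had the lowest value of the group, -0.30 (limma adjusted p = 0.255).

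No peptide carrier passed on any of 8 probe sets. SLC15A1, the intestinal type of di- and tripeptide carrier, is dim and read 4.02 and 4.10 in 2D and 3.91 and 4.16 in 3D (-0.025, 95% interval -0.32 to 0.27, limma adjusted p = 0.943). SLC15A2, the high-affinity type known from the kidney, is dim on all 3 probe sets. It read 5.34 and 5.61 in 2D and 5.78 and 5.69 in 3D on its brightest one (0.26, 95% interval -0.05 to 0.57, limma adjusted p = 0.287). SLC15A3 differed by 0.045. The lysosomal carrier SLC15A4 differed by -0.29 to 0.00.

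Genes with several probe sets did not always read alike. Of the 28 such genes, 17 had fold changes all above 0 or all below 0. SLC38A1 passed on 3 of 3 probe sets, whereas SLC6A6, SLC6A8 and SLC7A1 passed on 1 of 3. Where each probe set lies on its transcript was not analysed here, so a change in transcript form and a change in amount cannot be told apart for these genes.

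In replicate 1 the members lay lower in 3D than the array as a whole. The median difference was -0.74 against -0.14 over all probe sets, and 81 of 108 (75.0%) were below 0 against 55.9% of all. Among members that are not dim the median was -0.75 (all such probe sets -0.12), and among dim ones it was -0.73 (all dim probe sets -0.25). Replicates 2 and 3 did not share this shift, with a median of 0.02 among members that are not dim and 0.015 among dim ones. The difference between the scales was not tested. Of the 8 probe sets that passed, 6 had the same sign in replicate 1, namely those of SLC1A1, SLC1A5, SLC7A1 and SLC38A1. Over all called probe sets that share was 73.9%. With 75.0% of members below 0 in replicate 1, a shared negative sign there adds little to the falls. The part of the brighter poly-A controls on 3D replicate 1 in this shift was not tested.

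**Figure D4:**
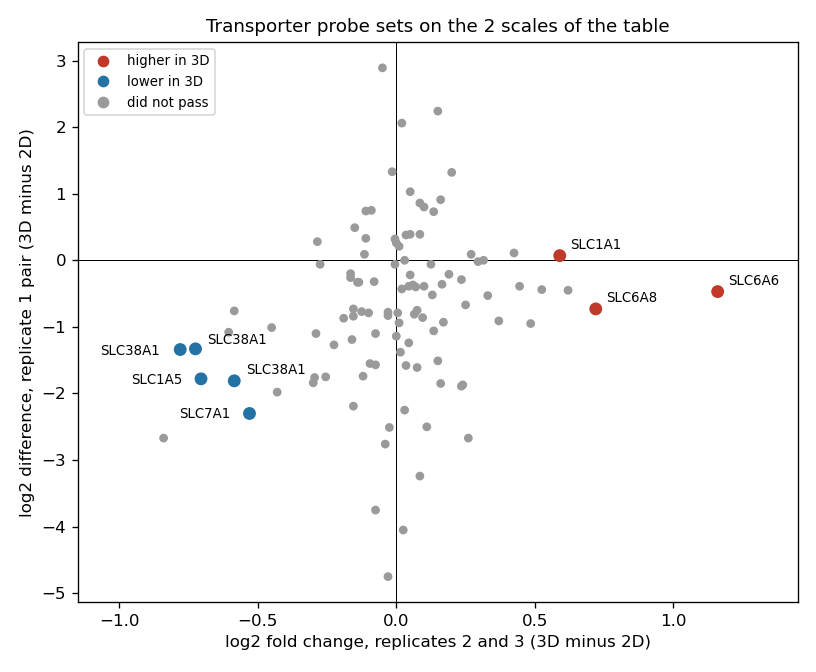
Log2 difference of the replicate 1 pair (vertical) against the log2 fold change from replicates 2 and 3 (horizontal) for the 108 probe sets, in colour where the limma test was passed. The 5 blue points lie below 0 on both axes, SLC1A1 lies near 0 on the vertical axis, and SLC6A6 and SLC6A8 lie below it.

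Other genes of amino acid handling were read from 6 lists, 1 probe set per gene, against 7.29% of all genes called. The lists were drawn up with earlier results of these data known, so their counts describe the genes listed and are not independent evidence of a direction. The median log2 fold changes were 0.285 for brush border peptidases and their partners, 0.18 for mTORC1 sensing and -0.23 for the starvation response. They were -0.175 for osmolyte genes, -0.08 for other carriers and 0.1575 for metabolism, against -0.01 over all genes. Among brush border peptidases and their partners 3 of 13 rose and 0 fell. They were the scaffold gene PDZK1 (log2 fold change 3.775, limma adjusted p = 0.00145, 7.17 and 7.53 in 2D against 11.02 and 11.23 in 3D), GGT1, which splits glutathione outside the cell (2.025, limma adjusted p = 0.00858), and the dipeptidase DPEP1 (0.605, limma adjusted p = 0.0268). All 3 were also higher in replicate 1. The other 10 did not pass. Of the peptidases among them, ACE, ANPEP, ENPEP, MEP1A and MEP1B differed by -0.18 to -0.04, MME by 0.02 and DPP4 by 0.33. PDZK1 anchors transporters in the apical membrane, and DPEP1 cleaves dipeptides at the same surface on which SLC15A2 acts.

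In the mTORC1 amino acid sensing list 2 of 26 rose and 1 fell. RRAGD, a Rag GTPase that brings mTORC1 to the lysosome, read 9.95 and 9.86 in 2D and 10.83 and 10.84 in 3D (0.93, SE 0.0998, limma adjusted p = 0.0113). SESN3, a sestrin that restrains mTORC1, rose (0.725, limma adjusted p = 0.0439), and FLCN, which acts on the Rag GTPases, fell (-0.555, limma adjusted p = 0.0447). All 3 had the same sign in replicate 1.

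Of 20 measured genes of the amino acid starvation response, 2 rose, 2 fell and 16 did not pass. Among those that did not pass, SESN2, PHGDH and EIF2AK4 lay above 0, at 0.12 to 0.215. The rest lay below 0, from -0.795 for ATF3 to -0.07 for PSPH, with ATF4 at -0.405. MTHFD2, a mitochondrial folate enzyme, fell from 11.85 and 12.34 to 10.62 and 10.60 (-1.485, SE 0.171, limma adjusted p = 0.0130), and DDIT4 fell (-0.66, limma adjusted p = 0.0336). NUPR1, a stress-induced nuclear protein (1.095, limma adjusted p = 0.0140), and the lipoprotein receptor VLDLR (0.905, limma adjusted p = 0.0256) rose, the latter with a replicate 1 difference of -0.96.

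Osmolyte and tonicity genes held 2 of 9 lower and 0 higher. SLC5A3, the carrier of the osmolyte inositol, read 7.90 and 7.87 in 2D and 7.24 and 7.01 in 3D (-0.76, SE 0.117, limma adjusted p = 0.0232), with -2.67 in replicate 1. AKR1B1, the enzyme that makes the osmolyte sorbitol, fell by 0.57 on the log2 scale (limma adjusted p = 0.0395). The taurine carrier SLC6A6 and these 2 genes thus differed in direction on replicates 2 and 3. In replicate 1 all of them were lower in 3D, AKR1B1 by -1.12 and SLC6A6 by -0.47 on its brightest probe set.

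Among 11 amino acid carriers outside the 8 families 1 rose, CTNS, which exports cystine from lysosomes (0.745, limma adjusted p = 0.0447, replicate 1 0.02). Of 18 genes of glutamate, glutamine, proline and cysteine metabolism and allied steps 3 rose and 1 fell. GLUL, which makes glutamine, read 9.15 and 9.26 in 2D and 10.55 and 9.97 in 3D (1.055, SE 0.195, limma adjusted p = 0.0354). ARG2, which splits arginine (0.62, limma adjusted p = 0.0250), and GSS, the last enzyme of glutathione synthesis (0.575, limma adjusted p = 0.0322), rose as well. ODC1, the entry enzyme of polyamine synthesis, fell (-0.67, limma adjusted p = 0.0283). These 4 had the same sign in replicate 1.

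**Figure D5:**
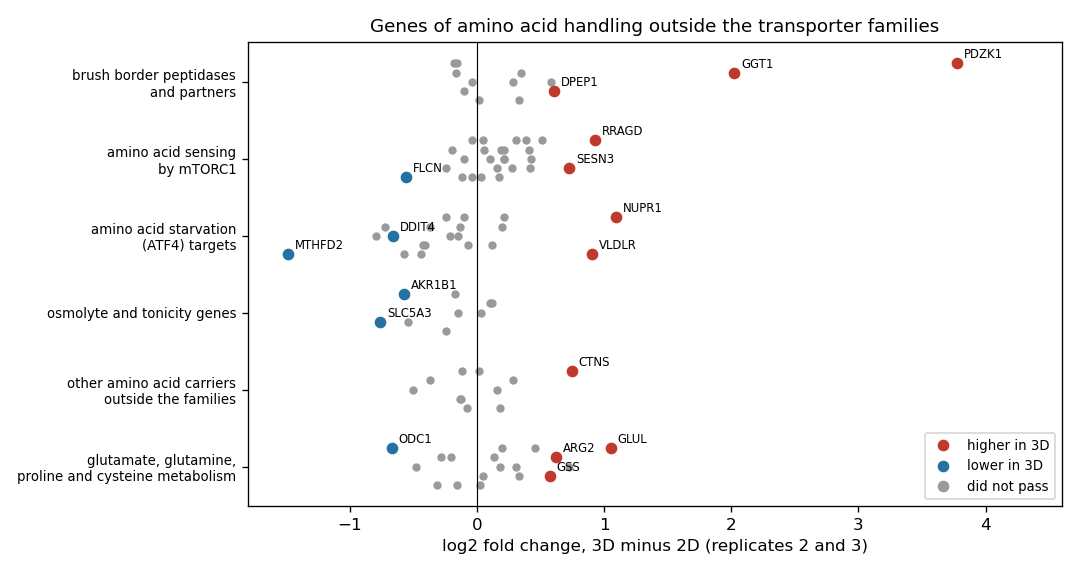
Log2 fold change (3D minus 2D, replicates 2 and 3) of the measured genes in 6 lists of amino acid handling outside the transporter families, 1 point per gene, offset vertically for legibility; named red and blue points passed the limma test. PDZK1, at 3.775, lies farthest to the right, and MTHFD2, at -1.485, farthest to the left.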

How the data were processed

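The authors deposited 1 log2 signal per probe set and array for 6 Affymetrix canine arrays, of which the submitters' processing notes name RMA and limma; versions, and how the replicate 1 columns came to lie on another scale, are not stated in the sources used here. Of 43035 probe sets 111 controls were left out. Gene symbols came from the platform annotation, and all 108 members matched the canine gene table by Entrez identifier with 0 symbols changed. The main test was limma 3.58.1 (lmFit, eBayes, two-sided) in R 4.3.3 on the 4 arrays of replicates 2 and 3, with Benjamini-Hochberg adjustment over 42924 probe sets, a threshold of 0.05 and no filter on level. For counts by gene, a gene with several probe sets was read from the brightest of them, averaged across the 6 arrays. The members and lists were chosen with earlier results of these data known. Named are all probe sets of genes with a call, 14 transporters fixed by name (SLC6A19 had no member probe set) and up to 4 called genes per list. A part of the naming rule that ranked members by signal was dropped, since signals of different probe sets are not comparable. P-values measure the spread between these arrays, whose number limits precision. Tables and figures were made with Python 3.11.15 (numpy 2.4.6, pandas 2.3.3, matplotlib 3.10.9). Alternatives were other scalings, a replicate block, a filter on dim probe sets, other priors and leaving out arrays.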

Additional observations from a re-analysis of the deposited data

How the results depend on the processing

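Re-centring the 4 arrays kept all 8 called probe sets, and leaving out dim probe sets kept 7 (the SLC7A1 probe set is filtered out). With trend and robust priors the count of lower probe sets was 3 and of lower genes 0. Counts of member probe sets and genes in either direction, and of all probe sets, were 0 with any 1 array left out, with all 6 arrays without a block, with all 6 and a replicate block, and with all 6 quantile normalized with a replicate block. The last 3 moved the members' median to -0.20, -0.20 and -0.14. With the replicate block on the 4 arrays the counts of higher and lower members, of genes and of all probe sets were also 0, with 8325 probe sets at an unadjusted p under 0.05 by limma. The numbers were not treated as pairing the samples of replicates 2 and 3. For these the labels give no shared origin, and deviations of same-numbered arrays among the 4 correlated at 0.0013. That value is taken over all probe sets, so it cannot exclude a shared replicate shift in single genes, such as that of SLC7A11. Both replicate 1 arrays did lie on another scale. Leaving out an array or adding a block lowers the residual degrees of freedom from 2 to 1. With all 6 arrays 105 probe sets had an unadjusted p under 0.05 by limma without a block, 2723 with it, and 3517 after quantile normalization with it. With all 6 arrays, with or without the block, the log2 fold changes of called probe sets were 0.62 for SLC6A6, 0.24 for SLC6A8, 0.42 for SLC1A1, -1.06 for SLC1A5, -1.12 for SLC7A1 and -0.99 to -0.93 for SLC38A1. Signs are not read as stability, since most alternatives cannot change them. The replicate 3 pair alone was added after the data had been seen. The members' median ranged from 0.0025 to 0.04 with an array left out. Averaging probe sets by gene gave 2 higher and 3 lower genes.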
